A study of Mus musculus with 35 samples.

Results

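The effect of diet on gene expression in liver CXCR6pos CD8 T cells was set against its effect in spleen CX3CR1neg CD8 T cells. The quantity is an interaction on the log2 scale, namely CD-HFD minus ND in liver CXCR6pos libraries, minus CD-HFD minus ND in spleen libraries. A positive value means that the diet raised a gene more, or lowered it less, in CXCR6pos cells than in spleen. All cells came from C57BL/6 mice aged 13 months. The diet labelled CD-HFD, an abbreviation used in this field for a choline-deficient high-fat diet, was compared with the diet labelled ND, a normal diet. Cells went into lysis buffer as they were sorted, and the 3′ ends of their polyadenylated transcripts were sequenced in bulk. The comparison rests on 22 of the 35 samples in the series, chosen by their labels: 5 CD-HFD liver CXCR6pos libraries, 6 ND liver CXCR6pos libraries, 6 CD-HFD spleen libraries and 5 ND spleen libraries. Another 10 libraries of liver CXCR6neg cells, 6 on CD-HFD and 4 on ND, took part in the same model and are used only to show whether a change was shared by the other liver fraction. The labels give no genotype or transgene, and they do not say whether the libraries of a group came from separate mice, so the p-values measure the spread between these libraries.

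CXCR6 is a chemokine receptor whose ligand CXCL16 is displayed in liver sinusoids, and it marks T cells that stay in the liver. CX3CR1, a receptor for the chemokine fractalkine, marks cytotoxic effector T cells that circulate, and a CX3CR1neg gate on spleen leaves such cells out. T cells that recirculate carry the sphingosine-1-phosphate receptor S1PR1 and the homing receptor CCR7 under control of the transcription factors KLF2 and FOXO1, and they live on interleukin 7. Cells driven through their antigen receptor for a long time switch to factors such as TOX and BLIMP1 (Prdm1) and carry the inhibitory receptors PD-1 (Pdcd1), CTLA-4 and TIM-3 (Havcr2).

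Total counts ran from 57168 to 369055 per library (median 182006) in CD-HFD CXCR6pos, from 15633 to 494700 in ND CXCR6pos, from 225036 to 978896 in CD-HFD spleen and from 169106 to 688547 in ND spleen. Levels are given as CPM, counts scaled to the library total with TMM factors. Cxcr6 itself was measured at 573, 601, 803, 776 and 867 CPM in CD-HFD CXCR6pos libraries, against a median of 499 CPM (201 to 812) in ND CXCR6pos libraries, and the interaction of Cxcr6 was 0.37 ± 0.44 (adjusted p = 0.798, edgeR's quasi-likelihood test). The Cxcr6 ranges of the CXCR6pos diets overlapped, and spleen libraries ran from 126 to 264 CPM. Cd4 and Foxp3, which define other T cells, were at most 3.21 CPM in any CXCR6pos library, while Cd8a had medians of 1481 CPM on CD-HFD and 1389 CPM on ND. The library labelled ND CXCR6pos replicate 6 stood apart, with a summed level of plasmacytoid dendritic cell markers of 1306 CPM against 147.7 to 215.7 CPM in the other 5 ND CXCR6pos libraries, a summed B cell level of 2294 CPM against 474.5 to 1034 CPM, and the lowest Cxcr6 level, 201.3 CPM. The library that the labels place both in ND spleen and in ND CXCR6neg, with the same values in all 22865 genes, was left out. RNA was taken from whole sorted samples, in which fewer cells of a type and less RNA per cell cannot be told apart.

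Diet altered far more genes in liver CXCR6pos cells than in spleen. Of 6174 genes tested, 299 were higher (4.84%) and 398 lower (6.45%) on CD-HFD in CXCR6pos cells, 11.3% of genes in all. In spleen 2 genes passed (0.0324%), 1 higher and 1 lower (0.0162% each). A gene passed at an adjusted p under 0.05 by edgeR's quasi-likelihood test with Benjamini-Hochberg adjustment. The interaction passed for 246 genes (3.98% of those tested), 75 higher (1.21%) and 171 lower (2.77%). The median interaction over all genes was -0.01 and the median spleen change was 0.00. The spleen arm held the deeper libraries, and a gene's 95% interval reached a median of 0.544 to either side of its estimate in CXCR6pos and 0.423 in spleen, in log2 units. Without the library labelled ND CXCR6pos replicate 6 the interaction counts were 61 higher and 151 lower. limma-trend on log2 CPM, a second model, called 33 higher and 56 lower, and of 88 named genes that passed in edgeR 39 also passed in limma. Where a gene given below with its interaction did not pass in limma, this is stated beside it or with its list.

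A change was called confined to CXCR6pos cells, relative to spleen, when the CXCR6pos diet effect and the interaction both passed, the spleen effect did not, and the 95% interval of the spleen effect lay within -1 and 1 in log2 units. That held for 215 genes, 63 higher and 152 lower on CD-HFD. Their median absolute log2 change was 1.05 in CXCR6pos cells and 0.116 in spleen, values that the definition itself separates. The definition allows a smaller spleen change in the same direction. For Il7r and Sh2d2a, both in this class and given below, the spleen interval left out 0. A further 26 genes passed both tests but had a spleen interval that reached past a 2-fold change, 8 higher and 18 lower. A sizeable spleen change was within reach of these intervals, and for Pdcd1, Tox and Lgals3, given below, the interval lay wholly above 0 although the adjusted p did not pass. Another 454 genes passed in CXCR6pos cells alone with no interaction call, 227 in each direction, and for these the 2 tissues were not shown to differ.

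**Figure D1:**
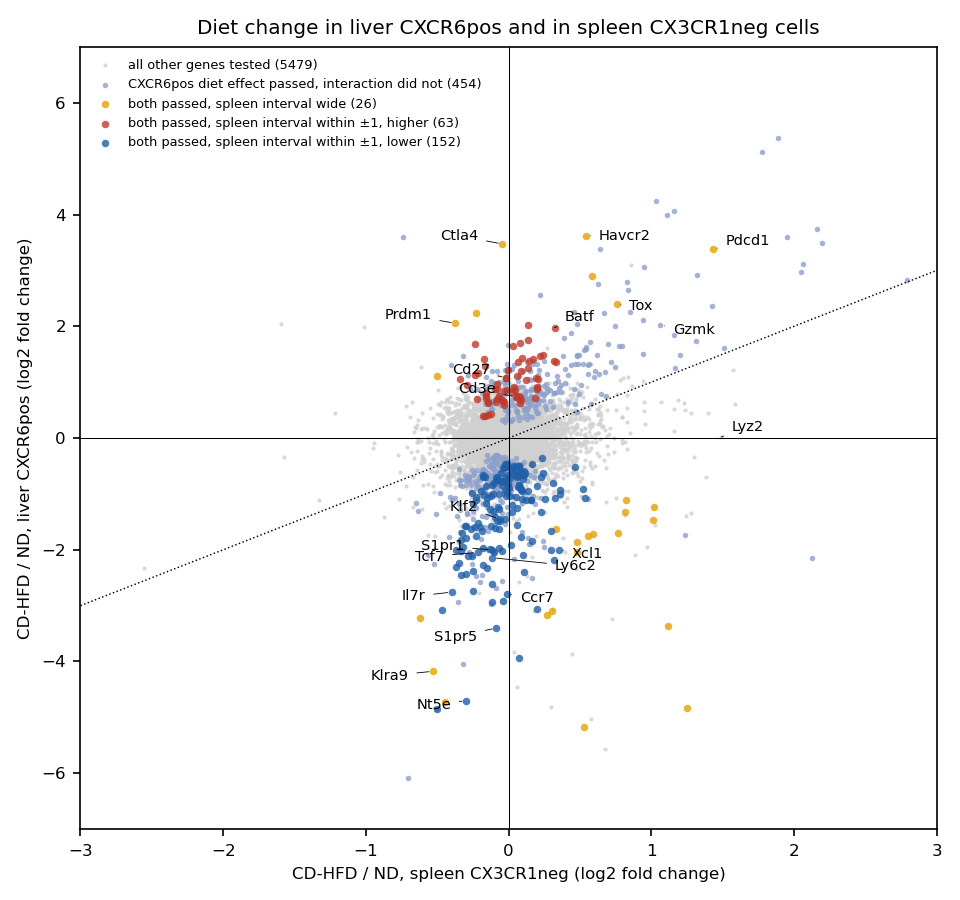
Diet effect of each of 6174 genes in spleen CX3CR1neg cells (x axis, log2 CD-HFD / ND) and in liver CXCR6pos cells (y axis, same scale); the dotted line marks equal effects. Genes whose change was confined to CXCR6pos cells (63 red, 152 blue) lie along the vertical axis, and 26 amber genes such as Pdcd1 and Havcr2 have spleen intervals too wide to place them there.

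Genes that let T cells leave tissue and recirculate were lower on CD-HFD in CXCR6pos cells. None of those named here passed in spleen, but only 0.0324% of all genes tested did, so that absence says little by itself. Ly6c2, a surface protein of circulating memory and effector CD8 T cells (chromosome 15, 75108158 to 75111970, minus strand), had 602, 574, 479, 488 and 707 CPM in the 5 CD-HFD CXCR6pos libraries, against a median of 2176 CPM (1888 to 3432) in the 6 ND CXCR6pos libraries. The same gene had a median of 2739 CPM (2545 to 3307) in the 6 CD-HFD spleen libraries, against 3329, 3118, 3141, 3038 and 2903 CPM in the 5 ND spleen libraries. The CXCR6pos groups did not overlap, and the spleen groups did. Here and below, most genes shown library by library were picked for their diet results, so separate groups describe them and add no support. The share of all genes with separate groups was not counted. The interaction of Ly6c2 was -2.03 ± 0.16 (SE, adjusted p = 2.99e-20), the smallest p of the comparison, with a spleen change of -0.11 (95% interval -0.31 to 0.084). Reads of Ly6c2 may be shared with its near-identical neighbour Ly6c1, so the assignment between the pair is uncertain.

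S1pr1, the receptor that guides T cells out of tissue along a sphingosine-1-phosphate gradient (chromosome 3, 115710433 to 115715072, minus strand), had 47.3, 60.8, 80.9, 80.8 and 88.4 CPM in CD-HFD CXCR6pos libraries, against a median of 254 CPM (148 to 355) in ND CXCR6pos libraries. In spleen it had a median of 350.4 CPM (316 to 414) in CD-HFD spleen libraries, against 314, 413, 448, 424 and 364 CPM in ND spleen libraries. Every CD-HFD CXCR6pos library lay below every ND one, while the spleen libraries overlapped. Its interaction was -1.89 ± 0.22 (adjusted p = 2.65e-10). Klf2, which encodes the factor that switches on S1pr1 (chromosome 8, 72319033 to 72321656, plus strand), had 703, 496, 598, 563 and 867 CPM in CD-HFD CXCR6pos libraries, against a median of 1679.9 CPM (1329 to 1912) in ND CXCR6pos libraries, and in spleen a median of 799.8 CPM (505 to 938) in CD-HFD spleen libraries, against 796, 792, 832, 861 and 828 CPM in ND spleen libraries. Again the CXCR6pos groups were apart and the spleen groups overlapped, and the interaction was -1.39 ± 0.16 (adjusted p = 5.35e-11). S1pr5, a related receptor of circulating effector cells, had 5.91, 3.38, 0, 17.3 and 0 CPM in CD-HFD CXCR6pos libraries, against a median of 64.5 CPM (0 to 146) in ND CXCR6pos libraries, where 1 shallow ND library at 0 made the groups overlap, and its interaction was -3.32 ± 0.54 (adjusted p = 1.89e-05, and 0.119 in limma). Foxo1, which acts upstream of Klf2, had an interaction of -0.24 ± 0.48 and did not pass (adjusted p = 0.891).

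Ccr7, the receptor for entry into lymph nodes, had 53.2, 57.4, 56.02, 25.97 and 35.4 CPM in CD-HFD CXCR6pos libraries, against a median of 313 CPM (119 to 528) in ND CXCR6pos libraries, and in spleen a median of 253 CPM (186 to 355) in CD-HFD spleen libraries, against 236, 312, 337, 270.1 and 188 CPM in ND spleen libraries. Its CXCR6pos groups did not overlap, and the interaction was -2.78 ± 0.51 (adjusted p = 0.00112). Itgb7, a homing integrin chain chosen after its values were seen, had an interaction of -1.40 ± 0.26 (adjusted p = 0.000864, and 0.123 in limma), with CXCR6pos groups that overlapped. List counts here and below are to be read against the shares of all genes tested, 2.77% lower and 1.21% higher. Of 16 tested genes on a list for egress and recirculation, 8 were lower in the interaction and 0 higher (0 also at an unadjusted p under 0.05), with a median of -0.98 against -0.01 for all genes, and 7 of the 8 passed without each of the 22 libraries in turn. The exception was S1pr4. In limma 4 of the 8 passed. The library labelled ND CXCR6pos replicate 6 is among those left out in turn.

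A list of naive and stem-like genes, which shares Ccr7 with the one above, held mostly lower calls. Tcf7, which encodes TCF1, the factor that maintains naive and stem-like T cells (chromosome 11, 52252371 to 52283014, minus strand), had 35.4, 70.9, 31.1, 54.8 and 88.4 CPM in the 5 CD-HFD CXCR6pos libraries, against a median of 229 CPM (170.4 to 295) in the 6 ND CXCR6pos libraries. In spleen it had a median of 299 CPM (258 to 367) in CD-HFD spleen libraries, against 375, 357, 380.1, 381 and 257 CPM in ND spleen libraries. The CXCR6pos groups were separate and the spleen groups overlapped, with an interaction of -1.83 ± 0.24 (adjusted p = 6.71e-09) and a spleen change of -0.22 (95% interval -0.45 to 0.015). Il7r, the interleukin 7 receptor chain that keeps resting T cells alive (chromosome 15, 9505788 to 9530176, minus strand), had 64.97, 50.6, 24.9, 46.2 and 35.4 CPM in CD-HFD CXCR6pos libraries, against a median of 323 CPM (98.5 to 391) in ND CXCR6pos libraries, and in spleen a median of 323 CPM (222 to 428) in CD-HFD spleen libraries, against 390.3, 393, 480.5, 488 and 470.2 CPM in ND spleen libraries. It fell below the ND range in every CD-HFD CXCR6pos library, and the interaction was -2.36 ± 0.29 (adjusted p = 5.65e-08). The spleen change of Il7r was -0.40, with an interval of -0.67 to -0.12 that left out 0 and an adjusted p of 0.901. Lef1, the partner of TCF1, chosen after its values were seen, had an interaction of -1.56 ± 0.36 (adjusted p = 0.00672). Of 14 naive and stem-like genes tested, 7 were lower (Tcf7, Lef1, Ccr7, Il7r, Satb1, Dapl1 and Nsg2) and 1, Cd27, was higher, with a median of -1.21. The calls of Satb1, Dapl1 and Nsg2 were lost when 1 or more single libraries were left out, and in limma.

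**Figure D2:**
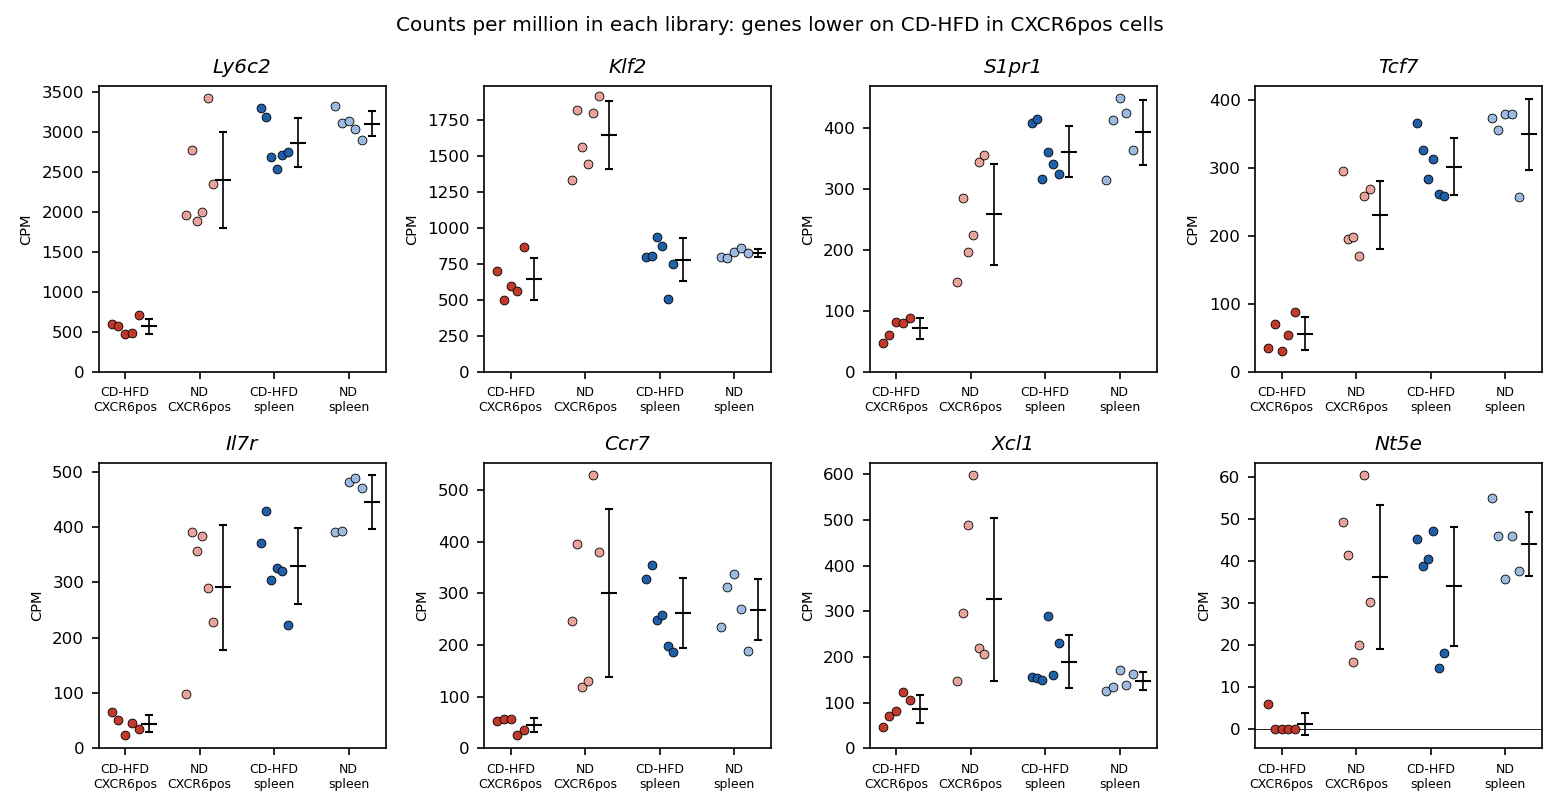
Level of 8 genes lower on CD-HFD in CXCR6pos cells, in CPM on the y axis, with 1 point per library and bars for the mean ± SD in CD-HFD CXCR6pos (n = 5), ND CXCR6pos (n = 6), CD-HFD spleen (n = 6) and ND spleen (n = 5). For Ly6c2, Klf2, S1pr1, Tcf7, Il7r and Ccr7 every CD-HFD CXCR6pos point lies below every ND CXCR6pos point, and the spleen groups overlap.

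Promoter sequences are shown for 4 genes called confined to CXCR6pos cells relative to spleen, 3 that fell (Tcf7, Xcl1 and Il7r) and 1 that rose (Cd27). Each is shown because its window holds a motif searched here. The sequences are RefSeq's on GRCm38.p6, from 250 bases before to 50 bases after a gene start, all 4 on the minus strand and printed 5′ to 3′, with each motif in capitals. The motifs were searched on both strands, so capitals hold the letters or their reverse complement, with the letters TGANTCA (AP-1), GTAAACA (FOXO), CTTTGAA (TCF/LEF), CCACACCC (KLF), TGTGGTTT (RUNX) and GGAAAAT (NFAT). Tcf7, in 1 of its 2 windows (chr11:52282546-52282845), holds a KLF and a FOXO motif, Xcl1 (chr1:164935473-164935772) a KLF motif, Il7r (chr15:9529827-9530126) a RUNX motif and Cd27 (chr6:125236978-125237277) a TCF/LEF motif.
Tcf7: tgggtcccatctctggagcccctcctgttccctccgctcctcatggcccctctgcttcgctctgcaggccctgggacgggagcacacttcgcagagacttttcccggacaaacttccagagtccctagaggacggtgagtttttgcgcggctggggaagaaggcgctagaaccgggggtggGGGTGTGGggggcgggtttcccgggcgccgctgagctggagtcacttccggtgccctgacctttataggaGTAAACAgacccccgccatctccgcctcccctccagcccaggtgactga
Xcl1: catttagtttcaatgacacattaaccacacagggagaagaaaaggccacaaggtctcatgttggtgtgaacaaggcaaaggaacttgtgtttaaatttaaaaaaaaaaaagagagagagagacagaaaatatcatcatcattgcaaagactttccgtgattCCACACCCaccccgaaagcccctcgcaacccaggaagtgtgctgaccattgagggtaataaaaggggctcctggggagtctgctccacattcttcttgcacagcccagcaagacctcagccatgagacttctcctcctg
Il7r: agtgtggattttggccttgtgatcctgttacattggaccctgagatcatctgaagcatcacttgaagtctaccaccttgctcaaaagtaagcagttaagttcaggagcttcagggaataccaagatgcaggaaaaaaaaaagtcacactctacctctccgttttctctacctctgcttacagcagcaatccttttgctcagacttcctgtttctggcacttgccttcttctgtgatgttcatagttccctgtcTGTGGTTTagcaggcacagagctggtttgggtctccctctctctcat
Cd27: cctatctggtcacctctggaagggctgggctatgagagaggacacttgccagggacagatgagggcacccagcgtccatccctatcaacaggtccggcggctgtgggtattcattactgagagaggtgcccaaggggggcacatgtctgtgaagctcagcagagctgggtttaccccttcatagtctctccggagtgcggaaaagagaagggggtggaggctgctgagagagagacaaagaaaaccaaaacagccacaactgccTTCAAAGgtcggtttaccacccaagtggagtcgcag

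Shares are of genes with at least 1 RefSeq promoter, and a gene counts when any of its windows holds the letters. A promoter was found for 116 of the 152 genes that were lower, 46 of the 63 that were higher and 4577 of the 6174 tested. The KLF letters stood in 9.48% of the lower genes, 6.52% of the higher genes, 4.59% of the tested genes and 4.09% of all 27025 genes with a promoter. The RUNX letters stood in 4.31%, 2.17%, 1.70% and 2.11% in the same order, and the FOXO letters in 5.17%, 4.35%, 3.28% and 4.05%. The AP-1 letters were in 6.90% of lower, 10.9% of higher, 6.05% of tested and 8.97% of all genes. The TCF/LEF letters were in 1 of the 116 lower genes (0.862%), against 4.35% of higher, 4.48% of tested and 5.93% of all. The NFAT letters were in 2.59%, 4.35%, 4.30% and 5.58%. A match describes the letters of these windows only.

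Receptors of the killer cell lectin-like family, which tune killing by natural killer and memory CD8 T cells, were lower in the interaction for 6 of 12 tested genes and higher for 0, with a median of -1.39. Over all genes tested 2.77% were lower and 1.21% higher. Klra9 had 5.91, 3.38, 6.22, 2.89 and 17.7 CPM in CD-HFD CXCR6pos libraries, against a median of 89.3 CPM (0 to 137) in ND CXCR6pos libraries, and in spleen a median of 18.7 CPM (6.23 to 24.04) in CD-HFD spleen libraries, against 28.8, 20.5, 25.1, 21.5 and 25.1 CPM in ND spleen libraries. As for S1pr5, 1 ND library at 0 made the groups overlap, and the interaction was -3.65 ± 0.65 (adjusted p = 6.40e-05, and 0.408 in limma). Klrk1, which encodes the activating receptor NKG2D, averaged 189 ± 79.98 CPM in CD-HFD CXCR6pos libraries and 523 ± 82.3 CPM in ND CXCR6pos libraries (SD, n = 5 and 6). Its interaction was -1.31 ± 0.30 (adjusted p = 0.00769), and that of Klra3 was -1.93 ± 0.48 (adjusted p = 0.00626, and 0.123 in limma). Klrc1, an inhibitory member, had -1.65 ± 0.42 (adjusted p = 0.0182), and without CD-HFD CXCR6pos replicate 2 its adjusted p was 0.0553. Without that library Klrd1 (0.145) and Klre1 (0.128) did not pass either, which left 3 of the 6 calls, and over the 22 fits without 1 library Klre1 lost its call in 11 and Klrd1 in 7. In limma 2 of the 6 passed. The Klra genes are near-identical copies of each other, so how counts fell among them is uncertain. Of 8 tested natural killer cell markers, which include several of the same genes, 3 were lower and 1, Eomes, was higher. In the diet test within CXCR6pos cells 6 of the 8 were lower and 1 was higher. The summed marker level was 791.5 to 2883 CPM in CD-HFD CXCR6pos and 1379 to 2035 CPM in ND CXCR6pos, and its part in these results was not tested. Trdc, the constant gene of the gamma delta T cell receptor, was at 0 to 11.8 CPM in CD-HFD CXCR6pos and 0 to 170.4 CPM in ND CXCR6pos, while the summed gamma delta and unconventional T cell markers were 406.7 to 1317 CPM and 208.8 to 708.2 CPM in the same groups.

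Both chains of the interleukin 18 receptor, through which CD8 T cells can be activated without antigen, were lower. Il18rap averaged 20.8 ± 14.01 CPM in CD-HFD CXCR6pos libraries and 71.4 ± 35.8 CPM in ND CXCR6pos libraries (SD, n = 5 and 6) and had an interaction of -2.21 ± 0.40 (adjusted p = 5.92e-05). Il18r1 averaged 23.4 ± 10.8 CPM in CD-HFD CXCR6pos libraries and 92.05 ± 28.8 CPM in ND CXCR6pos libraries, with -1.79 ± 0.36 (adjusted p = 0.00044). In limma neither passed, at -1.51 for Il18rap (adjusted p = 0.455) and -1.45 for Il18r1 (0.0552). In spleen the changes were 0.10 (95% interval -0.29 to 0.50) for Il18rap and -0.18 (-0.52 to 0.16) for Il18r1. Pim1, a kinase gene that cytokines induce through STAT5, had an interaction of -1.35 ± 0.30 (adjusted p = 0.00177). On the list of interleukin receptors and STAT5 targets 4 of 20 genes were lower, Il7r among them, and 3 were higher, with a median of -0.13. Il10ra, the interleukin 10 receptor chain, was the one of those 3 that passed without each library in turn, and it was chosen after its value was seen, with 1.04 ± 0.26 (adjusted p = 0.00754, and 0.0782 in limma).

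Among secreted factors the direction was mixed. Xcl1, a chemokine that draws cross-presenting dendritic cells, had 47.3, 70.9, 80.9, 124 and 106 CPM in CD-HFD CXCR6pos libraries, against a median of 258 CPM (148 to 598) in ND CXCR6pos libraries, and in spleen a median of 158 CPM (149.6 to 289) in CD-HFD spleen libraries, against 126, 135, 172, 138 and 163 CPM in ND spleen libraries. The CXCR6pos groups were separate and the spleen groups overlapped, and the interaction was -2.36 ± 0.42 (adjusted p = 0.000664). Tnf, the inflammatory cytokine, had -3.44 ± 0.73 (adjusted p = 0.00477) with a spleen change of 0.27 whose interval, -0.92 to 1.46, was wide. Tnfsf14, which encodes LIGHT, was lower as well (95% interval -2.97 to -1.02, adjusted p = 0.00541, and 0.103 in limma). Ccl5, a chemokine stored by memory and effector CD8 T cells (chromosome 11, 83525778 to 83530518, minus strand), moved the other way, with 44494, 42461, 55088, 49407 and 52700.0 CPM in CD-HFD CXCR6pos libraries, against a median of 23232 CPM (19594 to 28227) in ND CXCR6pos libraries. In spleen Ccl5 had a median of 18176 CPM (13121 to 22839) in CD-HFD spleen libraries, against 14129, 13542, 15816, 14655 and 19110.0 CPM in ND spleen libraries. The CXCR6pos groups did not overlap, the spleen groups did, and the interaction was 0.84 ± 0.14 (adjusted p = 3.16e-05). In CXCR6neg cells too every CD-HFD library lay above every ND one. In all 4 of 13 secreted factors were lower and 1 was higher, with a median of -0.38.

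Several genes fell to nearly no counts in CD-HFD CXCR6pos cells. Nt5e, which encodes CD73, the enzyme that turns AMP into adenosine, had 5.91, 0, 0, 0 and 0 CPM in CD-HFD CXCR6pos libraries, against a median of 35.8 CPM (16.1 to 60.4) in ND CXCR6pos libraries. In spleen it had a median of 39.6 CPM (14.6 to 47.1) in CD-HFD spleen libraries, against 55.01, 46.1, 35.9, 46.04 and 37.6 CPM in ND spleen libraries. A single read or molecule in all CD-HFD CXCR6pos libraries stood against 59 in ND CXCR6pos, a ratio of ND over CD-HFD of 36.6 after depth (exact 95% interval 6.31 to 1468, counting error only), and the spleen groups overlapped. The interaction of Nt5e passed (adjusted p = 0.000212). Tdrp had 1 count against 65 (ratio of ND over CD-HFD 40.3, interval 6.98 to 1615), and Aqp9, a water and glycerol channel gene, had 1 count against 61 (ratio 37.8, interval 6.53 to 1517). Ncf1, a subunit of the phagocyte NADPH oxidase, had 0 counts against 23 and was at least 4.75-fold lower, taking 3 counts over the group as the floor. Tdrp, Aqp9 and Ncf1 did not pass in limma (adjusted p = 0.17, 0.0544 and 0.0801). Acss2, the enzyme that turns acetate into acetyl-CoA, fell less far, with an interaction of -1.53 ± 0.37 (adjusted p = 0.005), and in limma it did not pass, at -0.84 (adjusted p = 0.66). P2rx7, a receptor for extracellular ATP, had -2.58 and did not pass (adjusted p = 0.214), although its diet effect within CXCR6pos cells did (log2 change -2.94, adjusted p = 0.00138).

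Immediate-early genes, which T cells switch on within minutes of activation or handling, were lower in the interaction for 8 of 22 tested, and higher for 0, with a median of -0.56. Zfp36, an RNA-binding protein that destabilises cytokine messages, had -1.23 ± 0.19 (adjusted p = 2.91e-06, and 0.0524 in limma), and its spleen change was 0.027 (95% interval -0.24 to 0.30). Jun, a subunit of the AP-1 factor, had 278, 273, 224, 138 and 177 CPM in CD-HFD CXCR6pos libraries, against a median of 606 CPM (459 to 1005) in ND CXCR6pos libraries, and in spleen a median of 36.6 CPM (19.4 to 46.6) in CD-HFD spleen libraries, against 23.6, 17.1, 28.7, 16.9 and 18.8 CPM in ND spleen libraries. The CXCR6pos groups were separate, and all spleen libraries lay far below them. In CXCR6neg cells too every CD-HFD library lay below every ND one, with medians of 387 and 753 CPM. The interaction of Jun was -2.47 ± 0.43 (adjusted p = 0.000462), made up of -1.70 in CXCR6pos cells and a spleen change of 0.77 (interval -0.023 to 1.55). Fos, the partner of Jun, had CXCR6neg medians of 378 CPM on CD-HFD and 644 CPM on ND. Its interaction with spleen was -2.32 ± 0.46 (adjusted p = 0.00124), with a spleen change of 0.55 (interval -0.28 to 1.39). With the duplicated library kept in both of its labelled groups, the adjusted p was 0.127 for Jun and 0.231 for Fos. Junb (0.744), Btg2 (0.344) and Ppp1r15a (0.509) did not pass there either, which left 3 of the 8 calls. In limma 3 of the 8 passed. Without ND spleen replicate 4 Junb, Btg2 and Ppp1r15a lost their calls, and without CD-HFD CXCR6pos replicate 2 Junb, Btg2 and Myc did, 5 of the 8 being left each time. Nfkbia, the inhibitor that NF-kB itself induces, was the 1 of 15 NF-kB and TNF feedback genes that passed, with -0.68 ± 0.18 (adjusted p = 0.0113, and 0.123 in limma). Over all genes tested 2.77% were lower, so 1 call of 15 says little about that list.

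Structural and migration proteins of the S100, annexin and galectin list were lower for 7 of 16 genes and higher for 0, with a median of -0.65, and in limma 2 of the 7 passed. Vim, the intermediate filament vimentin, averaged 273 ± 28.1 CPM in CD-HFD CXCR6pos libraries and 724 ± 267 CPM in ND CXCR6pos libraries (SD, n = 5 and 6), with an interaction of -1.40 ± 0.22 (adjusted p = 5.92e-05). Tagln2, an actin-binding protein outside that list, had -1.14 ± 0.17 (adjusted p = 4.18e-07). Lgals3, which encodes galectin-3, had -2.48 ± 0.46 (adjusted p = 0.00124), with -1.47 in CXCR6pos cells and 1.01 in spleen (interval 0.33 to 1.70). Of 55 cytosolic ribosomal protein genes, 6 were lower and 0 higher, with a median of -0.27, against 2.77% lower and 1.21% higher of all genes tested. Rps28 had -0.70 ± 0.18 and Rps18 -0.57 ± 0.14 (adjusted p = 0.00673 and 0.0049), the 2 of the 6 that passed without each library in turn. Without ND CXCR6pos replicate 5 there were 2 of the 6 calls left and without ND spleen replicate 2 there were 3, and in limma Rps18 alone passed. Adgrg5, an adhesion receptor gene, had -2.61 ± 0.34 (adjusted p = 9.02e-09), and Dnajc15, a mitochondrial co-chaperone gene, had -1.47 ± 0.18 (adjusted p = 1.52e-09).

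Several genes of the antigen receptor and of costimulation were higher on CD-HFD in CXCR6pos cells. They did not pass in spleen, where only 0.0324% of all genes tested did. Cd3e, a signalling chain of the T cell receptor (chromosome 9, 44998740 to 45009627, minus strand), had 1890.1, 2076, 1967, 1806 and 1715 CPM in CD-HFD CXCR6pos libraries, against a median of 1166 CPM (739 to 1278) in ND CXCR6pos libraries. Its spleen levels were a median of 947 CPM (857 to 1000.5) in CD-HFD spleen libraries, against 893, 886, 975, 901 and 821 CPM in ND spleen libraries. The CXCR6pos groups did not overlap, and the interaction was 0.68 ± 0.14 (adjusted p = 0.000341), with a spleen change of 0.055 (95% interval -0.13 to 0.24). Cd3g had 0.60 ± 0.14 (adjusted p = 0.00448), and the kinase genes Zap70 and Fyn had 0.74 ± 0.18 (adjusted p = 0.00519, and 0.133 in limma) and 1.08 ± 0.20 (adjusted p = 0.000535). The coreceptor genes did not pass, with 0.047 ± 0.15 for Cd8a and -0.079 ± 0.14 for Cd8b1 (adjusted p = 0.941 and 0.88). Over all genes tested 1.21% were higher and 2.77% lower. Of 22 proximal T cell receptor signalling genes 4 were higher and 1, Thy1, was lower, with a median of 0.21. All 4 higher calls held without each library in turn, and that of Thy1 did not. Sh2d2a, an adaptor induced by T cell activation, had 1542, 1309.6, 1058, 1215 and 831 CPM in CD-HFD CXCR6pos libraries, against a median of 462 CPM (345 to 645) in ND CXCR6pos libraries, and in spleen a median of 252 CPM (243 to 269.9) in CD-HFD spleen libraries, against 196, 222, 208, 204 and 163 CPM in ND spleen libraries. All CD-HFD libraries lay above all ND libraries in both tissues, with a spleen change of 0.32 (interval 0.069 to 0.57, adjusted p = 0.956), and the interaction was 1.06 ± 0.17 (adjusted p = 4.86e-06).

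Cd27, a costimulatory receptor of the TNF receptor family (chromosome 6, 125232622 to 125237010, minus strand), had 408, 351, 479, 401 and 442 CPM in the 5 CD-HFD CXCR6pos libraries, against a median of 187 CPM (98.5 to 231) in the 6 ND CXCR6pos libraries. In spleen the gene had a median of 359 CPM (327 to 374) in CD-HFD spleen libraries, against 406, 391, 301, 345 and 339 CPM in ND spleen libraries. Here the CXCR6pos groups were apart, the spleen groups overlapped, and the CD-HFD CXCR6pos levels came near those of spleen. The interaction of Cd27 was 1.10 ± 0.17 (adjusted p = 2.91e-06), and the spleen change was -0.017 (interval -0.23 to 0.20). Icos, an inducible costimulator, had 64.97, 87.8, 193, 164 and 70.7 CPM in CD-HFD CXCR6pos libraries, against a median of 43.5 CPM (20.04 to 57.8) in ND CXCR6pos libraries, with an interaction of 1.61 ± 0.39 (adjusted p = 0.0049, and 0.203 in limma). Cd28, the receptor that licenses activation, had 0.96 ± 0.23 (adjusted p = 0.00361, and 0.264 in limma). On the costimulatory list 5 of 12 genes were higher, and 1, Cd226, was lower at -1.98 ± 0.39 (adjusted p = 0.000296), with a median of 0.81. Tnfrsf18 and Tnfrsf1b were the calls that single libraries could undo, and in limma Cd27 alone of the 6 passed.

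Cytotoxic genes were less uniform. Nkg7, a granule protein of killer cells, had 7631, 8036, 8845, 8318 and 7639.8 CPM in CD-HFD CXCR6pos libraries, against a median of 4638 CPM (3200.5 to 4971) in ND CXCR6pos libraries, and in spleen a median of 3691 CPM (2998 to 4172) in CD-HFD spleen libraries, against 3009.6, 3125, 3134, 3135 and 3292 CPM in ND spleen libraries. The CXCR6pos groups were separate and the interaction was 0.68 ± 0.13 (adjusted p = 0.000232). Cst7, the protease inhibitor cystatin F, had 0.78 ± 0.16 (adjusted p = 0.000487). Prf1, perforin, passed at 0.69 ± 0.19 (adjusted p = 0.0209), but not without ND CXCR6pos replicate 6 (0.0731), CD-HFD CXCR6pos replicate 5 (0.0596) or ND spleen replicate 1 (0.0654), nor in limma (0.154). Gzmb and Fasl, the granzyme and the death ligand, had interactions of -0.074 ± 0.53 and 0.054 ± 0.23 (adjusted p = 0.983 and 0.962). Of 16 cytotoxic genes 3 were higher and 1, Gzmm, was lower, with a median of 0.13, against 1.21% higher and 2.77% lower of all genes tested. The call of Gzmm was lost in 4 of the 22 fits without 1 library and in limma. On a list of tissue residency and retention genes 1 of 18 was higher and 2 were lower, with a median of 0.09, and of these Xcl1 alone passed without CD-HFD spleen replicate 3 and in limma. So few calls say little about that list.

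Transcription factors of effector and long-stimulated T cells were higher in the interaction for 6 of 17 tested genes and lower for 1, Tbx21, with a median of 0.85. Batf, an AP-1 family factor of effector differentiation (chromosome 12, 85686669 to 85709087, plus strand), had 284, 267, 442, 418 and 301 CPM in CD-HFD CXCR6pos libraries, against a median of 88.2 CPM (40.3 to 124) in ND CXCR6pos libraries, and in spleen a median of 93.5 CPM (77.5 to 151) in CD-HFD spleen libraries, against 68.1, 85.4, 57.4, 79.8 and 81.5 CPM in ND spleen libraries. The CXCR6pos groups did not overlap, and the interaction was 1.65 ± 0.27 (adjusted p = 8.89e-06). Tox, a factor of chronically stimulated T cells (chromosome 4, 6686353 to 6991557, minus strand), had 573, 405, 411, 387 and 371 CPM in CD-HFD CXCR6pos libraries, against a median of 90.6 CPM (0 to 118) in ND CXCR6pos libraries. In spleen Tox had a median of 117 CPM (79.5 to 165) in CD-HFD spleen libraries, against 73.3, 54.6, 75.3, 69.1 and 43.9 CPM in ND spleen libraries. The groups were separate in both tissues, with CD-HFD above ND. The CXCR6pos change was 2.40, the spleen change 0.76 (interval 0.26 to 1.25, adjusted p = 0.733) and the interaction 1.65 ± 0.35 (adjusted p = 0.00288), so these data do not place the change of Tox in CXCR6pos cells alone. The interaction of Tox did not pass in limma (adjusted p = 0.154). Prdm1 had 59.1, 97.9, 112, 101 and 106 CPM in CD-HFD CXCR6pos libraries, against a median of 19.3 CPM (0 to 35.5) in ND CXCR6pos libraries, with an interaction of 2.43 ± 0.56 (adjusted p = 0.00254) and a spleen change of -0.37 (interval -1.24 to 0.49). Runx3 and Eomes, which direct cytotoxic differentiation, had 0.95 ± 0.23 and 1.33 ± 0.33 (adjusted p = 0.00346 and 0.00893, and 0.291 and 0.341 in limma). Ikzf2, the factor Helios, passed at 2.32 ± 0.63 (adjusted p = 0.0161), but not without CD-HFD CXCR6pos replicate 4 (0.0635) or ND spleen replicate 4 (0.0618), nor in limma (0.0858). Tbx21, which encodes T-bet and was chosen after its value was seen, had -0.82 ± 0.21 (adjusted p = 0.00984) and lost its call without 1 library. In limma 2 of the 7 calls on the list were left, those of Batf and Prdm1.

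Of 12 inhibitory receptors tested, 3 were higher in the interaction and 0 lower, with a median of 0.74. The 3 were Pdcd1, Havcr2 and Ctla4, and the spleen interval of each reached past a 2-fold change. Pdcd1 (chromosome 1, 94038305 to 94052553, minus strand) had 508, 446, 566, 545 and 601 CPM in the 5 CD-HFD CXCR6pos libraries, against a median of 59.7 CPM (19.4 to 76.9) in the 6 ND CXCR6pos libraries. In spleen Pdcd1 had a median of 53.05 CPM (23.3 to 75.3) in CD-HFD spleen libraries, against 23.6, 13.7, 14.3, 18.4 and 12.5 CPM in ND spleen libraries. The CXCR6pos groups lay far apart, and the spleen groups overlapped with the higher values on CD-HFD. The CXCR6pos change was 3.38, the spleen change 1.43 (interval 0.67 to 2.19, adjusted p = 0.444) and the interaction 1.95 ± 0.52 (adjusted p = 0.0233). Without ND spleen replicate 1 or replicate 4 the adjusted p of the interaction was 0.0806 or 0.0939. Havcr2 had 35.4, 40.5, 149, 127 and 159 CPM in CD-HFD CXCR6pos libraries, against a median of 6.30 CPM (0 to 12.6) in ND CXCR6pos libraries, with an interaction of 3.08 ± 0.74 (adjusted p = 0.00539) and a spleen interval of -0.44 to 1.53. Ctla4 had 177, 216, 492, 415 and 301 CPM in CD-HFD CXCR6pos libraries, against a median of 30.5 CPM (0 to 44.97) in ND CXCR6pos libraries, and in spleen a median of 7.90 CPM (3.14 to 36.1) in CD-HFD spleen libraries, against 15.7, 3.41, 10.8, 13.8 and 18.8 CPM in ND spleen libraries. Its groups were separate in CXCR6pos cells and overlapped in spleen, and the interaction was 3.52 ± 0.81 (adjusted p = 0.00793, and 0.0551 without ND spleen replicate 4). Havcr2 was the 1 of the 3 that passed without each library in turn. Ctla4 and Ikzf2 also stand on the list of CD4 and regulatory T cell markers, whose summed level was 378.0 to 810.8 CPM in CD-HFD CXCR6pos against 49.2 to 147.7 CPM in ND CXCR6pos, while Cd4 and Foxp3 had 1 count each over all CD-HFD CXCR6pos libraries.

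**Figure D3:**
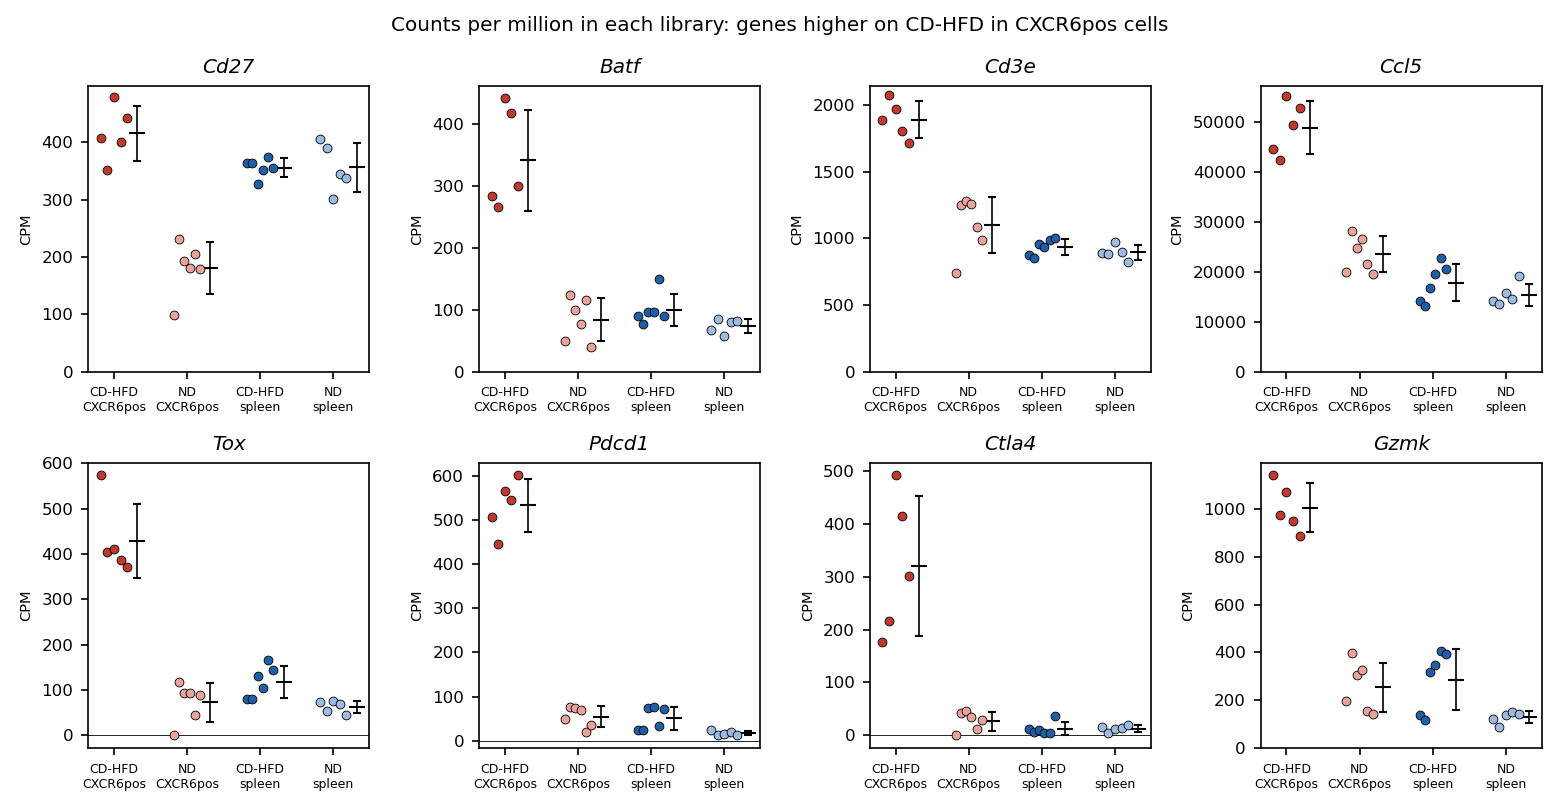
Level of 8 genes higher on CD-HFD in CXCR6pos cells, in CPM on the y axis, with 1 point per library and bars for the mean ± SD in CD-HFD CXCR6pos (n = 5), ND CXCR6pos (n = 6), CD-HFD spleen (n = 6) and ND spleen (n = 5). The 5 CD-HFD CXCR6pos points lie above all ND CXCR6pos points in each panel, and for Tox all 6 and for Gzmk 4 of 6 CD-HFD spleen points also lie above the ND spleen points.

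Other genes of effector and long-stimulated cells changed in CXCR6pos cells with no interaction call, and the 4 given here were chosen after their values were seen. Gzmk, granzyme K, had 1140.0, 975, 1071, 949 and 884 CPM in CD-HFD CXCR6pos libraries, against a median of 251 CPM (143 to 397) in ND CXCR6pos libraries, and in spleen a median of 333 CPM (116 to 408) in CD-HFD spleen libraries, against 123, 88.8, 139.8, 152 and 144 CPM in ND spleen libraries. The CXCR6pos groups were separate, and in spleen 4 of 6 CD-HFD libraries lay above the ND range. The diet changes were 2.02 in CXCR6pos cells and 1.06 in spleen (interval 0.40 to 1.73), and the interaction was 0.95 ± 0.45 (adjusted p = 0.313). Tigit, an inhibitory receptor, changed by 3.12 in CXCR6pos cells, with 2.07 in spleen (interval 0.52 to 3.62). Ifi27l2a, an interferon-inducible gene, changed by 1.74 in CXCR6pos cells, with 1.31 in spleen (interval 0.75 to 1.87). Lag3, another inhibitory receptor, had 41.3, 57.4, 131, 101 and 0 CPM in CD-HFD CXCR6pos libraries, against a median of 8.78 CPM (0 to 16.1) in ND CXCR6pos libraries, and in spleen a median of 4.76 CPM (3.004 to 9.41) in CD-HFD spleen libraries, against 0, 0, 3.59, 0 and 0 CPM in ND spleen libraries, so that the groups overlapped in both tissues at low counts. For these 4 genes no spleen effect passed the adjustment over all genes, and a tissue difference was not shown. Cx3cr1 had an interaction of -1.77 ± 0.57 (adjusted p = 0.055), and in spleen the sort removed cells that carry its protein.

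The other liver fraction gave a second comparison. Diet changed 29 of 6174 genes in liver CXCR6neg cells (0.470%), 18 higher (0.292%) and 11 lower (0.178%). The CXCR6pos diet effect differed from the CXCR6neg diet effect for 89 genes (1.44%), 27 higher (0.437%) and 62 lower (1.00%). This second interaction uses the same CXCR6pos libraries as the first, so the values are set side by side and are not independent. Of the 215 genes confined to CXCR6pos cells relative to spleen, 10 passed the diet test in CXCR6neg cells too, 5 higher and 5 lower, and the median absolute log2 change of the 215 there was 0.243. The interaction against CXCR6neg passed for 66 of the 215, 15 higher and 51 lower. For the rest of them the liver fractions were not shown to differ.

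Of the 16 egress and recirculation genes, 5 were lower and 0 higher in the interaction against CXCR6neg, where 1.00% of all genes tested were lower and 0.437% higher. Naive and stem-like genes had 3 lower and 1 higher of 14, and proximal T cell receptor genes 3 higher of 22. Effector transcription factors had 1 higher of 17 and killer lectin-like receptors 1 lower of 12. Immediate-early genes had 2 lower of 22, the S100 list 2 lower of 16 and ribosomal genes 1 lower of 55. Inhibitory receptors had 0 calls of 12. Set against CXCR6neg, the interaction was -1.98 for S1pr1 (adjusted p = 1.22e-09), -1.76 for Ly6c2 (3.18e-15) and, among the naive and stem-like genes, -1.94 for Tcf7 (1.71e-08) and -2.38 for Il7r (4.83e-07). In CXCR6neg cells S1pr1 changed by -0.025 (interval -0.31 to 0.26) and Tcf7 by -0.11 (-0.40 to 0.19). For Ly6c2 and Klf2 every CD-HFD CXCR6neg library lay below every ND one, while for S1pr1, Tcf7 and Il7r the CXCR6neg groups overlapped. Klf2 was also lower in CXCR6neg cells, by a log2 change of -0.45 (adjusted p = 0.0177), and differed between the liver fractions at -0.99 (adjusted p = 1.05e-05). S1pr5 was lower in CXCR6neg cells, at -1.58 (adjusted p = 0.00281), and the fractions were not shown to differ (-1.82, interval -3.06 to -0.59, adjusted p = 0.146).

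Higher genes split in the same comparison. Cd3e, Fyn and Sh2d2a changed by -0.03, 0.018 and 0.20 in CXCR6neg cells, and the liver fractions differed for each (adjusted p = 0.000279, 0.00478 and 1.56e-06). Batf, Tox and Pdcd1 were higher on CD-HFD in CXCR6neg cells, by 1.41, 1.46 and 2.63 (adjusted p = 4.56e-05, 0.00571 and 0.000312). For these the liver fractions were not shown to differ, with intervals of the difference of -0.025 to 1.16 for Batf, 0.14 to 1.73 for Tox and -0.43 to 1.93 for Pdcd1. The change of Batf was thus confined to CXCR6pos cells relative to spleen, with no difference shown against CXCR6neg cells.

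**Figure D4:**
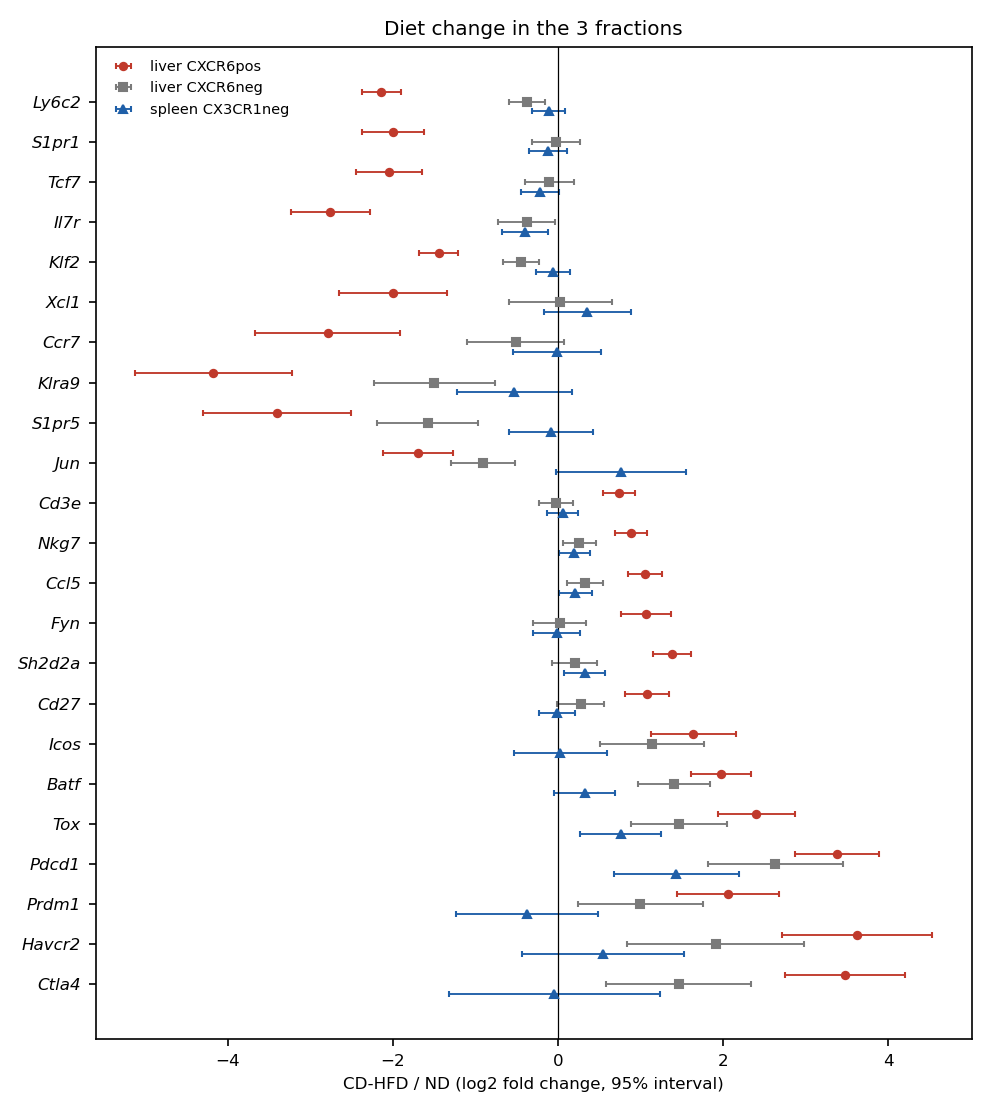
Diet effect (log2 CD-HFD / ND on the x axis, with its 95% interval) of 23 named genes in liver CXCR6pos, liver CXCR6neg and spleen CX3CR1neg cells. S1pr1, Tcf7, Cd3e and Fyn stay near 0 in both other fractions, whereas Batf, Tox and Pdcd1 take a middle place in CXCR6neg.

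Whole programs gave no interaction call by edgeR's quasi-likelihood test. None of 38 nuclear oxidative phosphorylation genes, 26 interferon-stimulated genes, 20 genes of MHC class I and peptide loading, 18 endoplasmic reticulum stress genes, 17 heat-shock genes, 17 BCL2 family and apoptosis genes, 14 fatty acid and cholesterol genes, 11 glycolysis genes or 6 TGF-beta response genes passed in either direction. Their medians lay between -0.32 and 0.13. Of all genes tested 3.98% passed, so 0 calls in lists this small say little about any one program. The diet test within CXCR6pos cells passed for 4 interferon-stimulated genes higher and 1 lower. It passed for 3 MHC class I genes higher, and for 3 BCL2 family genes higher and 1 lower. Each of the other lists had 0 to 2 calls there. Of the 163 different genes on these 9 lists, 20 had an unadjusted p under 0.05 (12.3%, against 14.5% of all genes tested), and DESeq2 and limma each called 1 heat-shock gene lower. For the lists given with 0 calls in 1 direction, both tools gave 0 in that direction too, with 0 to 3 genes at an unadjusted p under 0.05. Proliferation genes had 0 higher and 1 lower of 15, chemokine receptors 0 and 1 of 9 (Ccr7), GIMAP GTPases 0 and 1 of 8 and mitochondrially encoded genes 0 and 1 of 8. The mitochondrial call, mt-Co1, was lost in 16 of the 22 fits without 1 library. That of proliferation, Tuba1b, was lost in 10 and that of GIMAP GTPases, Gimap9, in 1. None of them passed in limma. Markers of B cells and of plasmacytoid dendritic cells had 0 calls of 9 and of 11, with medians of -1.18 and -3.96 and with 3 and 9 genes at an unadjusted p under 0.05. Within ND CXCR6pos, the library labelled replicate 6 held the high values. In spleen the summed B cell markers were higher still, at 5365 to 7605 CPM on CD-HFD and 3933 to 6169 CPM on ND. Summed plasmacytoid dendritic cell markers there were 304.6 to 509.9 CPM and 317.7 to 390.8 CPM. Erythroid markers summed to 3654 to 10570 CPM in CD-HFD CXCR6pos and 2261 to 6095 CPM in ND CXCR6pos, and to 2352 to 5091 CPM in CD-HFD spleen and 817.9 to 1962 CPM in ND spleen. Their part in the diet effects was not tested.

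**Figure D5:**
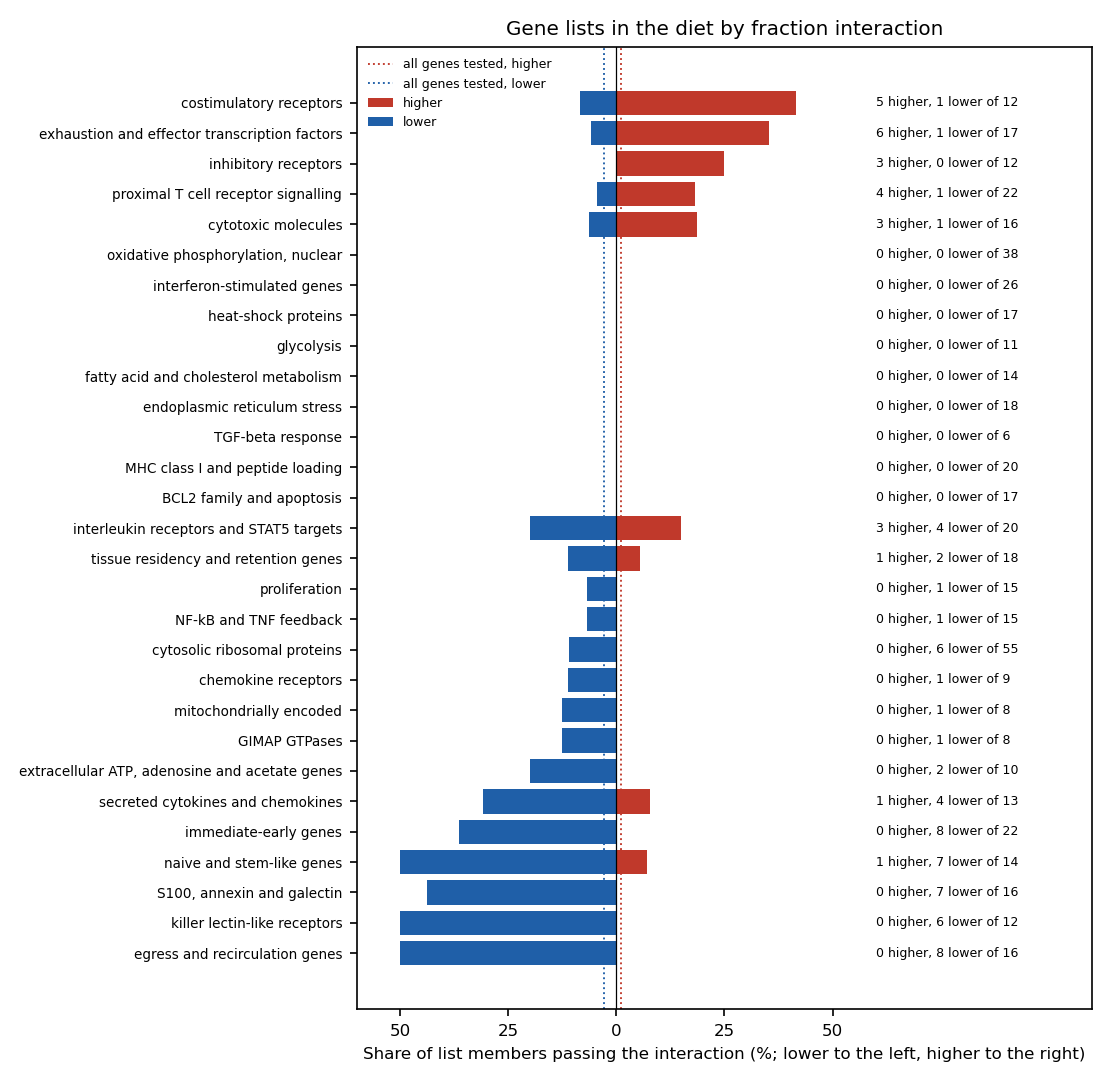
Share of the tested members of 29 gene lists that passed the interaction (x axis, percent, lower to the left and higher to the right), with the counts at the right and dotted lines at the shares of all genes tested (1.21% higher, 2.77% lower). Costimulatory receptors and effector transcription factors extend to the right, and egress, killer lectin-like and naive genes to the left.

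The 2 genes that passed in spleen were Lyz2, lysozyme of myeloid cells, at 1.49 (adjusted p = 0.0133) and a predicted gene that is counted but not named. Lyz2 levels were 25.1 to 82.6 CPM in CD-HFD spleen and 10.5 to 32.3 CPM in ND spleen, and the summed Kupffer cell and macrophage markers were 69.0 to 153.2 CPM and 31.4 to 64.5 CPM in the same groups. At an unadjusted p under 0.05, 274 genes stood out in spleen, while DESeq2 called 2 genes and limma 0. Another 5 genes passed the interaction though neither tissue passed alone, among them Il27ra, the interleukin 27 receptor chain, with 0.46 in CXCR6pos cells and -0.33 in spleen (interaction 0.79 ± 0.22, adjusted p = 0.0155, and 0.239 in limma). Each of these 5 calls was lost in 1 to 14 of the 22 fits that left out 1 library. Ier5l passed in CXCR6pos cells (adjusted p = 0.000181) but had under 3 counts in each spleen group, so its spleen effect could not be measured.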

How the data were processed

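Barcoded 3′ libraries of sorted CD8 T cells were sequenced, per the labels' protocols. The authors deposited raw counts per gene in 1 table. GRCm38.p6 and DESeq2 1.14.1 are named in the submitters' processing notes; the aligner, the use of strand, and whether reads or molecules were counted are not stated in these sources. Of 35 columns 34 matched a sample, and 1 was not used. CD-HFD CXCR6pos replicate 6 was not analysed here. The column found under 2 labels was left out, a departure from the planned fit.

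The other 32 libraries in 6 groups entered 1 model in edgeR 4.0.16 (R 4.3.3): filterByExpr, TMM, estimateDisp, robust glmQLFit and glmQLFTest, with Benjamini-Hochberg adjustment over 6174 of 22865 genes and a threshold of 0.05. SE is the absolute log2 change over the root of F. Overlapping and antisense genes cannot be told apart. Gene coordinates follow GENCODE M21.

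Named genes passed the interaction at 20 CPM or more on average in 1 of the 4 groups and had the largest changes, or the smallest p-values of a class or list. Another 13 were named in every case, and the text marks those chosen after their values were seen, as were members named only to complete the count of a list. The comparison, the lists and the rule were chosen with earlier results of these data known. Alternatives were other normalizations and filters, DESeq2 1.42.0, limma 3.58.1, the duplicated library kept, a replicate block, and each library left out. One gene is not reported here and was taken off the lists.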

Additional observations from a re-analysis of the deposited data

Results flagged for a closer look

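The tests of the difference itself put 246 genes on record as differing between tissues, 75 higher and 171 lower in CXCR6pos relative to spleen, and 89 between the liver fractions, 27 higher and 62 lower in CXCR6pos relative to CXCR6neg.

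Single libraries lay apart from the rest of their group in 12 of 122 groups of values examined. The gap between the extreme library and its neighbour, relative to the range of the group, was past Dixon's critical value in each. Dixon's rate of about 1 in 20 is for normally distributed values. A group with counts in 1 library only, as for Nt5e and Lag3, passes whatever the value, so 12 of 122 does not measure an excess. Values are in CPM. Among CD-HFD CXCR6pos libraries, replicate 1 had 573 for Tox (next 411), 5.91 for Nt5e (all others 0) and 59.1 for Prdm1 (next 97.9, all others higher), and replicate 5 had 17.7 for Klra9 (next 6.22). In ND CXCR6pos, replicate 6 had 1306 for summed plasmacytoid dendritic cell markers (next 215.7) and 2294 for summed B cell markers (next 1034). In CD-HFD spleen, replicate 5 had 151 for Batf (next 97.3), replicate 6 had 36.1 for Ctla4 (next 10.96) and replicate 1 had 269.9 for Sh2d2a (next 253). In ND spleen, replicate 5 had 539 for Itgb7 (next 364) and the lowest value for Tcf7 at 257 (next 357), while replicate 3 had 3.59 for Lag3 (all others 0). The calls of Itgb7 and Tcf7 held without ND spleen replicate 5, and those of Tox, Prdm1 and Nt5e without CD-HFD CXCR6pos replicate 1.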

How the results depend on the processing

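Of 88 named genes that passed, 87 were tested in all 22 fits without 1 library and 60 passed in each, while Tbc1d4 was tested in 7. Wherever a named gene that passed was tested under the 34 settings it kept its sign, with 81 to 88 of the 88 tested at a time. By DESeq2 79 of the 88 passed, by limma 39, and 78 passed without ND CXCR6pos replicate 6 and the 2 shallowest libraries, a setting chosen after seeing the data that left 63 higher and 157 lower interaction calls and 54 against CXCR6neg.

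DESeq2 gave 61 higher and 124 lower interaction calls. limma on log2 CPM, in which the median interaction of all genes was 0.11, gave 33 and 56, with 263 lower in CXCR6pos, 0 in spleen (67 at an unadjusted p under 0.05), 43 against CXCR6neg, and 21 higher and 46 lower confined genes. Without a filter on low counts spleen had 8 calls and confined genes were 34 higher, with an all-gene median of -0.15. A spleen interval within -0.5 and 0.5, chosen after seeing the data, left 37 higher and 94 lower confined genes. With the duplicated library in both groups spleen had 1 call.

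Same-numbered libraries did not deviate together (10 pairs, r from -0.057 to 0.085, 2 closest to their own number). A low r between shallow libraries of different tissues cannot show whether a pair came from the same mouse. A replicate block within diet gave 69 higher and 125 lower calls, against 69 and 137 in the same 20 libraries without it, and a replicate block by number gave 7 spleen calls. Of the 81 named genes tested in those 20 libraries 69 passed with the block and 71 without, and with the block Ccr7 had -2.54 (adjusted p = 0.0987).

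Leaving out 1 library at a time, the interaction had 51 to 88 higher and 129 to 184 lower calls, CXCR6pos 238 to 303 and 312 to 430, the comparison with CXCR6neg 67 to 109, confined genes 45 to 70 higher and 109 to 162 lower, and spleen 1 to 5 (1 without ND spleen replicate 1 or CD-HFD spleen replicate 3 or 5, 4 without CD-HFD spleen replicate 1 and 5 without CD-HFD spleen replicate 2). Depth limits low genes most, since the shallowest library held 15633 counts.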
